A study of Danio rerio with 6 samples.

Results

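Of the 6 messenger RNA libraries made from heads of zebrafish (Danio rerio) larvae, the 2 labelled replicate 1 stood apart from the 4 labelled replicate 2 or 3, and the genes that set them apart are described here. The grouping follows the replicate number in the labels: wild-type replicate 1 and mutant replicate 1 were on the first side, and wild-type and mutant replicates 2 and 3 on the other, with genotype as a covariate. It was chosen because earlier results from these same counts had shown the separation. Its size is therefore a description, with no test. Tests are given only for whether the difference was the same in both genotypes and whether replicate 3 differed from replicate 2. They are not independent of the grouping, which was chosen with both replicate 1 libraries already seen apart from the rest. That choice favours agreement between the genotypes and likeness of replicates 2 and 3.

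The mutant larvae carried the srrm4[y712] allele on both chromosomes, and the wild-type larvae were their siblings; all were 3 days old, and each genotype had 3 libraries. Srrm4 is a splicing regulator of neurons that promotes the inclusion of microexons. The labels give no clutch, number of heads, dissection or extraction date for any library. They name a pair of RNA kits (Qiagen RNeasy mini and Zymo Direct-zol RNA Microprep) without saying which library came from which, so the kit, the dissection and the replicate number cannot be told apart here. Nothing says that the replicates were separate clutches, so p-values measure only the spread between these samples.

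Along the body axis of vertebrates, hox genes are expressed in a nested order. Paralog groups with low numbers are active from the hindbrain backwards, and those with high numbers, along this axis, mainly in the posterior trunk and tail. The larval zebrafish head holds the brain, eyes, ears, jaw cartilage and some head muscle. The liver, gut and most of the swimming muscle lie behind it, and the pronephros, the larval kidney, runs from a glomerulus just behind the head to distal tubules far back in the trunk. Genes restricted to those organs serve as their markers.

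All 6 libraries carry the tissue label head. Markers of brain and eye were present in all of them. Transcripts of posterior hox genes (groups 9 to 13) were also found in all, and their sum was higher in both replicate 1 libraries. The 16 tested posterior hox genes summed to 117 and 106 CPM in wild-type and mutant replicate 1 and to 14.4 to 21.6 CPM in the others. hoxb10a, which had the highest ratio among them, stood at 7.59 and 6.36 CPM (counts scaled to library size with TMM factors) in wild-type and mutant replicate 1. In replicates 2 and 3 it stood at 0.195 and 0.0363 CPM in wild-type and at 0.0112 and 0.0645 in mutant, the lowest of which is a single count. Whether any preparation held tissue beyond the head, and which, was not tested.

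Total counts ran from 52510621 to 101032166 per library, and the 2 replicate 1 libraries were the smallest. The TMM factors, which correct for differences in composition, were 0.862 and 0.859 in replicate 1 and 1.048 to 1.104 in the others. The 100 most abundant genes of each library took 29.3% of the counts of either replicate 1 library and 18.1% to 19.3% of the others. The first principal component placed the replicate 1 libraries at 75.1 and 80.2 and the other 4 between -41.97 and -34.74. The second, with 12.4% of the variance, had mutant replicate 2 at 43.1, wild-type replicate 2 at 7.67 and both replicate 3 libraries at -23.7 and -25.0, and both replicate 1 libraries near 0. srrm4 itself, a neuronal gene, had 14.6 and 18.7 CPM in wild-type and mutant replicate 1, against 53.6 to 58.7 in the other 4, so that the replicate number divided its values more than the genotype did.

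**Figure D1:**
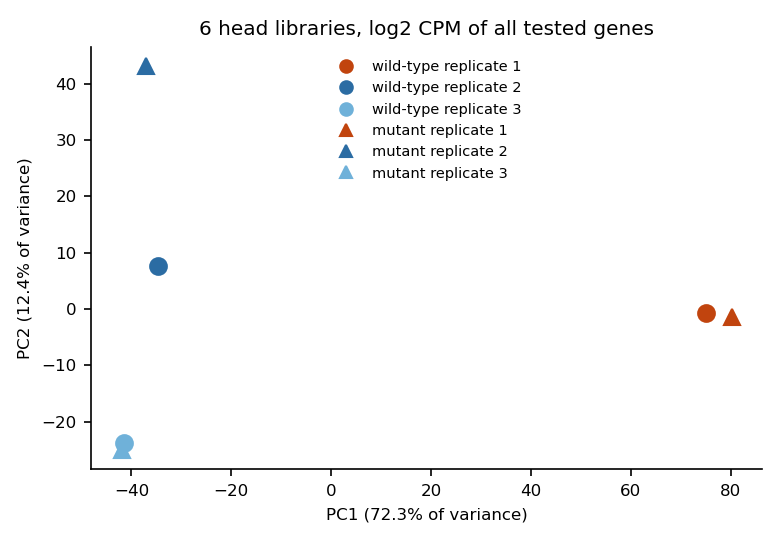
The 6 libraries on the first 2 principal components of log2 CPM over 24765 genes; colour gives the replicate number and shape the genotype. Both replicate 1 libraries lie together at the right, and both replicate 3 libraries together at the lower left.

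Of 24765 genes tested, 1692 (6.83%) were over 2-fold higher in replicate 1 than in replicates 2 and 3, and 1792 (7.24%) were over 2-fold lower. The median log2 ratio over all genes was -0.02, and the quartiles were -0.43 and 0.39; 48.9% of genes were higher and 51.1% lower at any size. Both replicate 1 libraries lay above all 4 others for 8344 genes (33.7%) and below all 4 for 8680 genes (35%). Since the grouping was chosen on these values, these shares serve only as the background for the lists below. Just inside the limit of 2-fold was sf3a2, with a log2 ratio of 1.0003, and just outside was atp5pd, with 0.99872; on the lower side snap91 lay at the limit. Genes with a mean under 1 CPM passed the limit most often (25.2% of 4147 genes), and those between 10 and 100 CPM least often (9.23% of 10937).

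The 7 marker genes given with the grouping divided by replicate number. hoxd10a, a posterior trunk gene, stood at 10.9 and 10.7 CPM in wild-type and mutant replicate 1, and at 0.809, 0.572, 0.760 and 0.617 in wild-type replicates 2 and 3 and mutant replicates 2 and 3. apoa1a, an apolipoprotein secreted by liver, gut and yolk syncytial layer, stood at 6384 and 5507 CPM in replicate 1 and between 507 and 671 in the others. slc12a3, the sodium chloride cotransporter of the distal kidney tubule, stood at 7.35 and 9.22 CPM against 0.0585 to 0.112. For all of these genes the lowest replicate 1 value lay far above the highest other value.

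tnni2a.4, a troponin I of fast muscle, reached 2943 and 2684 CPM in replicate 1 and 218 to 403 CPM in the other libraries. The brain markers lay on the opposite side. gad2, which makes the transmitter GABA, had 54.8 and 53.1 CPM in replicate 1 and 195 to 209 CPM in the others, which is 3.76-fold higher in the others. foxg1a, a transcription factor of the telencephalon, had 20.5 and 19.2 CPM against 35.1 to 37.0 CPM, a 1.82-fold difference. The groups did not overlap for any of the 7 genes, which were chosen with earlier results of these counts known. Over all genes, both replicate 1 libraries lay above all others for 33.7% and below all others for 35%. Wild-type and mutant lay close together within each replicate number, apart from hoxb10a in replicates 2 and 3 and slc12a3 in replicate 2. In those libraries the counts of these genes were few.

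**Figure D2:**
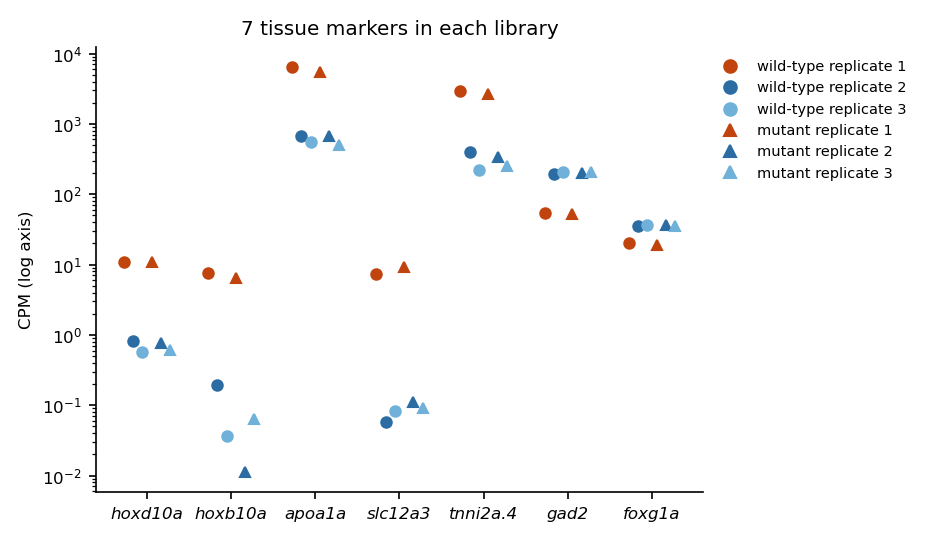
CPM of the 7 markers in each library on a log axis; colour gives the replicate number and shape the genotype. The replicate 1 points lie above all others for the hox, liver, kidney and muscle markers and below all others for gad2 and foxg1a.

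hox genes of groups 9 to 13 were taken as markers of the posterior body. Of 22 such genes, 16 could be tested, and all 16 were higher in replicate 1 (48.9% of all genes were), 12 of them over 2-fold in both genotypes (5.4% of all genes were over 2-fold higher in both). Both replicate 1 libraries lay above all others for 15 of the 16, hoxc13b being the exception. The remaining 6 genes, all of the hoxc cluster, did not reach the count minimum in the 3 libraries that the filter requires, although replicate 1 held most of their counts: hoxc10a had 593 and 344 counts in replicate 1 and 10, 3, 2 and 6 in the others. Together the 6 untested genes had 1585 counts in the 2 replicate 1 libraries and 69 in the other 4.

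Among the paralog groups the highest medians were those of groups 9 to 11. Groups 1 to 5 had median log2 ratios between -0.51 and -0.03. Group 6 had a median of 0.26, the only tested gene of group 7, hoxb7a, a ratio of 1.56, and group 8 a median of 0.83. Groups 9, 10 and 11 had medians of 3.24, 3.97 and 2.67, while group 12, again a single tested gene, stood at 0.68 and group 13 at 0.51. These medians leave out the untested hoxc genes of groups 10 to 13. Among those, hoxc12a had 127 and 56 counts in wild-type and mutant replicate 1 and 0 to 3 in the others. hoxc13a had 59 and 33 counts against 0 to 3, whereas hoxc12b had 5 and 6 against 0 to 5. Summed over its 5 tested genes, group 9 stood at 63.8 and 59.6 CPM in replicate 1 and at 10.3, 5.37, 8.18 and 5.65 CPM in wild-type replicates 2 and 3 and mutant replicates 2 and 3. Group 3, which is active from the hindbrain backwards, summed to 181 and 176 CPM against 172 to 209 CPM, and there the sides overlapped.

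**Figure D3:**
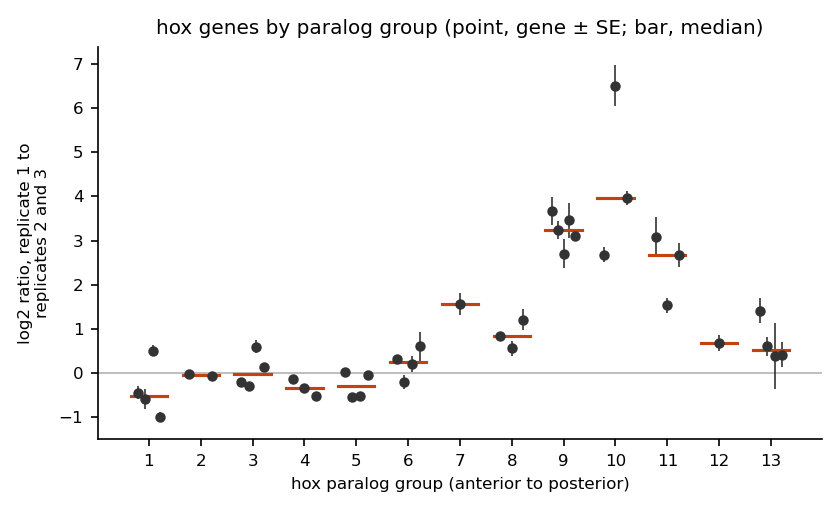
Log2 ratio of replicate 1 to replicates 2 and 3 (± SE) for each tested hox gene, by paralog group; the orange bar is the group's median. Groups 1 to 6 lie between -0.99 and 0.61, and groups 9 to 11 between 1.54 and 6.51.

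Within the posterior hox genes the levels in replicates 2 and 3 also differed by number. hoxb9a, the member with the highest mean level, had 22.4 and 21.6 CPM in replicate 1. It had 4.66 and 4.34 CPM in both replicate 2 libraries and 2.37 and 2.17 CPM in both replicate 3 libraries. hoxa10b had 12.3 and 10.4 CPM in replicate 1 and 1.46 to 2.19 CPM in the others, where replicates 2 and 3 were close within each genotype.

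Other lists of the posterior body had medians closer to 0. Of 9 tested genes of tail and caudal patterning, 4 were higher and 5 lower (median -0.04). A single member, tbxta, the Brachyury gene of notochord and tailbud, was over 2-fold higher in both genotypes, with 8.77 and 7.60 CPM in replicate 1 and 1.11 to 2.96 CPM in the others. cdx4, a caudal gene of the tailbud, was too low to test, with 32 and 34 counts in replicate 1 and 4, 2, 0 and 0 in the others. The 15 spinal cord genes had a median of 0.01. Among them pkd2l1, a channel of neurons that contact the cerebrospinal fluid, had a ratio of 1.24 and the motor neuron factor mnx2b 1.27, whereas the acetyltransferase of cholinergic neurons, chata, had -0.80. Of 7 notochord genes 5 were higher and 2 lower (median 0.26). tbxta, cmn and col8a1a, the latter 2 at 1.45 and 1.32, were over 2-fold higher in both genotypes, and entpd5a had the lowest ratio, -0.91. Of 9 fin fold genes, the actinodin gene and3 alone was over 2-fold higher, and and1 and and2, which also build fin rays, had 0.60 and 0.44.

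Fast muscle was the second list by its median, 1.78. Of its 42 genes, all tested, 36 were higher and 6 lower in replicate 1. Over 2-fold higher in both genotypes were 27 of them, beside 5.4% of all genes. Summed over the list, the level was 99924 and 100990 CPM in replicate 1, against 28169 and 16452 CPM in wild-type replicates 2 and 3 and 24719 and 18369 CPM in mutant replicates 2 and 3. The sums of the 2 replicate 1 libraries were thus close to each other and far above the rest. actc1b, a muscle actin, had 16383 and 17092 CPM against 1937 to 3969 CPM. pvalb2, a parvalbumin that binds calcium, had 10140 and 10709 CPM against 1086 to 2087 CPM, and the further markers mylpfa, pvalb1 and ckma had log2 ratios of 2.07, 2.65 and 2.36.

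The fast muscle genes that were not higher included those of the largest sarcomere proteins. ttn.2 and ttn.1, which encode titin, had log2 ratios of -0.97 and -0.85, and neb, which encodes nebulin, had 0.00. ttn.2 had 299 and 294 CPM in replicate 1 and 467 to 706 CPM in the others, so that the groups did not overlap in the direction opposite to that of actc1b. The troponin I genes split as well: tnni2a.4 had the highest ratio of the list, and tnni2a.3 the lowest, -1.04. Genes of this name series may share reads; their sequences were not compared.

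Slow and cardiac muscle lists had medians closer to 0. The 10 slow muscle genes, 4 higher and 6 lower, had a median of -0.26. Their summed level went the other way, with 1305 and 1233 CPM in replicate 1 and 795 to 903 CPM in the others. The slow myosin smyhc1 had 456 and 433 CPM in replicate 1 and 168 to 223 CPM in the others, a log2 ratio of 1.24, while mybpc1, a myosin-binding protein, had -1.06. None of the 17 heart genes was over 2-fold apart. Their summed level was 426 and 417 CPM in replicate 1 and 422 to 459 CPM in the others, and these ranges overlapped. The cardiac myosin myh7 stood at -0.65 and the light chain myl4 at -0.20.

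Liver genes were the third list by median, 1.45. Of 42 genes, 40 were found and tested. Of these, 30 were higher, 26 of them over 2-fold in both genotypes (5.4% of all genes were), and 10 were lower. Their summed level was 28645 and 27357 CPM in replicate 1 and 4972 to 5954 CPM in the others. apoa1b, an apolipoprotein like apoa1a, had 8313 and 8352 CPM against 1090 to 1250 CPM. The fibrinogen chain fgb, a clotting protein, had 219 and 227 CPM against 48.1 to 52.6 CPM.

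The other 14 liver genes were not over 2-fold higher in both genotypes. Among them fabp10a, the fatty acid binding protein used as a hepatocyte marker, had 41.9 and 43.0 CPM in replicate 1 and 35.4 to 45.1 CPM in the others, with overlapping groups and a log2 ratio of 0.08. tfa, transferrin, was less than 2-fold higher, with a ratio of 0.76. The metabolic enzymes cps1, uox and hpda had ratios of -0.54, -0.57 and -0.56, and ttr, transthyretin, had -1.32, from 1.70 and 1.62 CPM in replicate 1 and 3.21 to 4.82 CPM in the others. Values within the liver list therefore lay on both sides of 0.

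Apolipoproteins were also the leading genes of the intestine list. Of its 23 tested genes 15 were higher, 9 of them over 2-fold in both genotypes (5.4% of all genes were). The median of the list was 0.49. apoa4b.1 had 1600 and 1585 CPM in replicate 1 and 187 to 250 CPM in the others. fabp1b.1, a fatty acid binding protein of enterocytes, had 348 and 334 CPM against 29.0 to 34.8 CPM, and slc10a2, the bile acid transporter of the lower gut, a log2 ratio of 1.98. The untested fabp6, which binds bile acids, had 125 and 157 counts in replicate 1 and 3 to 8 in the others. mep1a.2, a brush border protease, went the other way, with 0.0917 and 0.0443 CPM in replicate 1 and 0.399 to 0.986 CPM in the others.

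The yolk protein vtg7 had 2.73 and 1.69 CPM in replicate 1 and 0.127 to 0.369 CPM in the others, and it was the only one of the 3 tested vitellogenins over 2-fold higher. Of the 17 exocrine pancreas genes 15 were lower, with a median of -0.56, which was -0.70 in wild-type and -0.15 in mutant, and the groups overlapped for 12 of the 17. The elastase gene ela2 had the lowest ratio, -2.28, from 0.168 and 0.355 CPM in replicate 1 and 0.514 to 1.48 CPM in the others. Their sum was 117 and 160 CPM in wild-type and mutant replicate 1, against 128 to 192 CPM in the others. Of the 8 endocrine genes 6 were higher, among them insulin, ins, with 0.79, and none was over 2-fold apart.

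The kidney list had a median of 0.16, close to that of all genes, yet held some of the highest ratios measured. Of 24 tested genes 15 were higher and 9 lower. Over 2-fold higher were 6 (6.83% of all genes were), 5 of them in both genotypes (5.4% of all genes were). Those 5 are transporters and channels of the tubule: slc12a3 at 6.58, the sodium potassium chloride cotransporter slc12a1 at 5.98, the chloride channel clcnk at 3.77, the sulfate transporter slc13a1 at 2.57 and the potassium channel kcnj1a.1 at 2.45. slc12a1 had 2.93 and 4.41 CPM in replicate 1 and 0 to 0.127 CPM in the others. clcnk had 3.28 and 3.79 CPM against 0.168 to 0.369 CPM.

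Genes of the anterior kidney had smaller ratios. cubn and lrp2a, the receptors with which the proximal tubule takes up protein, had log2 ratios of -0.01 and -0.07. The podocyte genes nphs1 and podxl, active in the glomerulus, had -0.28 and -0.20. podxl had 64.5 and 61.2 CPM in replicate 1 and 67.0 to 76.4 CPM in the others. cdh17, a cadherin of the pronephric tubules and duct, had 60.8 and 67.4 CPM against 25.8 to 40.2 CPM, a ratio of 1.06. pax2a, a factor of kidney, ear and the boundary of midbrain and hindbrain, had the lowest ratio of the list, -0.73.

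The highest ratio of any gene with a mean of at least 5 CPM belonged to stc1l, a stanniocalcin made in the corpuscles of Stannius, small glands on the distal pronephros. It had 18.7 and 16.8 CPM in replicate 1, and 0.166, 0.172, 0.0559 and 0.194 CPM in wild-type replicates 2 and 3 and mutant replicates 2 and 3, a log2 ratio of 6.88 ± 0.23 (SE). The other 9 of the 10 highest ranged from 3.58 to 4.23. They included the muscle ankyrin repeat gene ankrd1b, with 21.9 and 14.3 CPM against 0.535 to 1.37 CPM, and the apolipoprotein genes apoea, apoa4a and a second gene listed as apoa4b.2. apoea and apoa4a are direct neighbours in the RefSeq annotation. cyp2aa9, a cytochrome P450, had 23.3 and 26.9 CPM against 1.13 to 3.21 CPM. FO704772.1 and FO704772.2 come from the same clone and may share reads.

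Epidermis genes were mostly higher. Of 29 epidermis genes 25 were higher, with a median of 0.64, and 6 were over 2-fold higher in both genotypes (5.4% of all genes). The keratins krt4 and krtt1c19e had 15675 and 15755 CPM, and 4887 and 4793 CPM, in replicate 1; the other libraries had 7721 to 8868 CPM of krt4 and 1932 to 2230 CPM of krtt1c19e. The 9 ionocyte genes had a median of 0.55. Of 18 pigment cell genes 16 were higher (median 0.52), among them pmela, a melanosome protein, at 1.07.

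All 16 erythroid genes were higher, and their median was 0.94, with 1.14 in wild-type and 0.76 in mutant. None had an interaction p under 0.05 in edgeR, but only 0.63% of all genes did, so this does not show that the genotypes were alike. The embryonic globin hbae3 had 1419 CPM in wild-type replicate 1, 1018 CPM in mutant replicate 1 and 447 to 835 CPM in the others, the highest of these in wild-type replicate 2. Of 19 leukocyte genes 14 were higher, 2 of them over 2-fold in both genotypes (5.4% of all genes were). Of those, apoeb, an apolipoprotein of microglia and other tissues, had 1099 and 1216 CPM against 253 to 266 CPM. The general leukocyte gene ptprc had 0.10 and the neutrophil gene mpx -0.04. Among 13 endothelial genes 6 were higher and 7 lower, and none was over 2-fold apart.

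Ribosomal protein genes, which belong to no tissue, were higher without exception. All 78 had both replicate 1 libraries above the other 4, as 33.7% of all genes had. The log2 ratios of these genes ran from 0.41 for rps8b to 1.75 for rps2. Of the 78, 56 were over 2-fold higher in both genotypes (5.4% of all genes were). Their sum was 122390 and 122110 CPM in replicate 1 and 52471 to 58638 CPM in the others. The transcripts encoded in the mitochondrial genome were lower for 11 of 13 genes, with a median of -0.28. Cell cycle genes had a median of 0.08, with none of 34 over 2-fold apart.

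Most lists of the brain lay below 0. In the list of glutamate and GABA signalling, 27 of 28 genes were lower (51.1% of all genes were), 18 of them over 2-fold in both genotypes (5.48% of all genes were over 2-fold lower in both). Their sum was 1066 and 1021 CPM in replicate 1 and 2368 to 2709 CPM in the others. grin1b, a subunit of the NMDA receptor, had 97.5 and 87.0 CPM against 249 to 329 CPM. slc6a1b, a GABA transporter, had 156 and 157 CPM against 335 to 367 CPM, and gad1b and slc32a1, further genes of GABA neurons, had ratios of -1.27 and -1.21.

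Genes shared by all neurons were less even. Of 38, 31 were lower and 7 higher (median -0.67). The sodium pump subunit atp1a3a, with 252 and 231 CPM against 702 to 756 CPM, was lower by more than 2-fold. map1aa, a large protein of microtubules, had the lowest ratio, -1.95. The synuclein sncga had 1.49, from 71.4 and 74.6 CPM in replicate 1 and 23.3 to 27.9 CPM in the others, and the neurofilament genes nefma, neflb and nefmb had 0.03, 0.20 and 0.44.

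Forebrain transcription factors were lower in 33 of 35 cases but by a smaller amount, with a median of -0.54, and only emx3 was over 2-fold lower. It had 5.01 and 4.61 CPM against 9.14 to 11.2 CPM. nr2f1a, the most abundant, had 120 and 117 CPM against 201 to 209 CPM. dlx2a and tbr1b, markers of GABA and glutamate lineages of the telencephalon, had ratios of -0.78 and -0.72. The list of midbrain and cerebellum had a median of -0.57, with 20 of 25 lower, and en2a, a factor of the boundary of midbrain and hindbrain, had -1.34. The neural progenitor list had a median of -0.32. Its pax6b and pax6a, factors of eye and brain, were over 2-fold lower, with ratios of -1.52 and -1.08.

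Of 12 radial glia genes 8 were lower and 4 higher, with a median of -0.43; fabp7a, a fatty acid binding protein, stood at 0.07 and slc1a2b, a glutamate transporter, at -0.65. gfap, the glial filament gene, was the only one over 2-fold apart, with 322 and 307 CPM in replicate 1 and 67.9 to 130 CPM in the others, a log2 ratio of 1.71. Myelin and oligodendrocyte genes had a median of 0.22, with mbpb at 0.22 and sox10 at 0.32. The pituitary list was divided, 4 higher and 4 lower, and held smtlb, the somatolactin gene, which at 2.93 was its only gene over 2-fold apart.

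In the eye, photoreceptors and lens lay on opposite sides. Of 56 photoreceptor genes 55 were lower, 23 of them over 2-fold in both genotypes (5.48% of all genes were). Their median was -0.93. opn1sw1, the ultraviolet cone opsin, had 358 and 325 CPM in replicate 1 and 787, 1048, 554 and 1017 CPM in wild-type replicates 2 and 3 and mutant replicates 2 and 3. gnat2, the transducin of cones, had 145 and 135 CPM against 213 to 413 CPM, a ratio of -1.22. rho, the rod opsin, had a smaller ratio of -0.42, with 346 and 348 CPM against 381 to 596 CPM. For 48 of the 56 genes both replicate 1 libraries lay below all others, as they did for 35% of all genes.

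Inner retina genes were lower in 17 of 19 cases with a median of -0.49. The bipolar cell factor vsx1 was close to 0, at -0.21, and tfap2a, a factor of amacrine cells, stood at -0.99, with 132 and 129 CPM against 252 to 268 CPM. Lens genes were higher in 45 of 55 cases with a median of 0.60. Most are crystallins that resemble one another closely, so reads may have been divided among them. crybb1 had 2562 and 2733 CPM in replicate 1 and 1493 to 1828 CPM in the others. cryaa, an alpha crystallin, was lower, at -0.38.

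**Figure D4:**
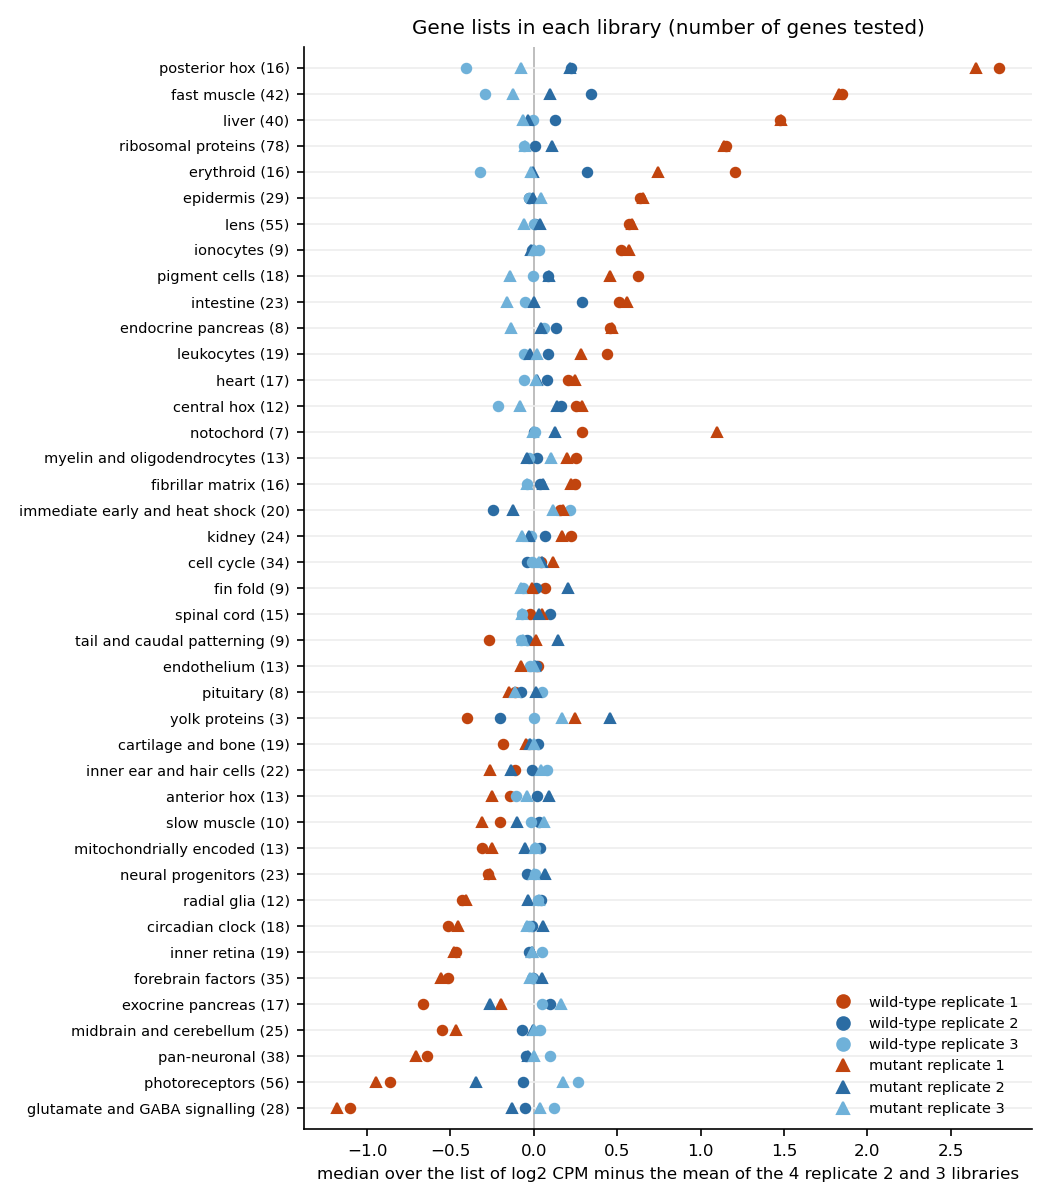
Each of 41 gene lists in each library, as the median over its tested genes (number in brackets) of log2 CPM minus the mean of the 4 replicate 2 and 3 libraries. Posterior hox, fast muscle and liver genes lie furthest to the right in both replicate 1 libraries, and transmitter and photoreceptor genes furthest to the left.

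Cartilage and the ear gave mixed values. The cartilage and bone list had 8 genes higher and 11 lower; its col2a1a, the main cartilage collagen, had 3467 and 3597 CPM in replicate 1, and 2194, 2494, 3260 and 2106 CPM in wild-type replicates 2 and 3 and mutant replicates 2 and 3. acana, aggrecan, had a ratio of -1.48. Of 16 genes of the fibrillar matrix 10 were higher and 6 lower (median 0.22). The collagen I genes col1a1a, at 1.65, col1a2, at 1.35, and col1a1b were over 2-fold higher in both genotypes, and the collagen VI gene col6a3, at -1.06, was over 2-fold lower. The 22 genes of inner ear and hair cells had a median of -0.19. Circadian clock genes had a median of -0.47, with nr1d2a, a repressor of the clock, at -1.18.

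Over all 41 lists, the median ratio was above 0.5 for 9 and below -0.5 for 6. A bulk library gives the share of a gene in the total, which also depends on the amount of other RNA. Fewer cells of a type, less RNA per cell and more RNA of other genes cannot be told apart for any of these lists. That is not a full list of what may differ. Effects of the RNA kit, RNA quality and transcript length on these ratios were not tested. With the counts scaled by library totals alone, without TMM factors, the median of all genes moved to -0.34, and the kidney median turned to -0.16. The medians of central hox, notochord, heart, leukocytes, fibrillar matrix, myelin and cell cycle also turned below 0 under that scaling, while these lists and the kidney list stayed above the moved median of all genes. Those of posterior hox, fast muscle, liver, transmitter signalling, forebrain and photoreceptors kept their direction, also relative to the moved median.

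The genes with the lowest ratios mostly bore clone names. Of the 10 lowest with a mean of at least 5 CPM, 9 were named after a clone. CR383676.2 had 18.7 and 18.3 CPM in replicate 1 and 192, 241, 176 and 274 CPM in the others, which is 11.9-fold higher in replicates 2 and 3. The exception was c4, complement component 4, with 3.86 and 3.81 CPM against 22.6 to 30.9 CPM, a ratio of -2.75. Of the 1357 genes over 2-fold lower in both genotypes, 45.2% bore a clone name, against 28.4% of the 1337 that were over 2-fold higher and 27.3% of all genes. The lower genes also had lower levels, with a median of the mean CPM of 4.26, against 8.93 for the higher genes and 10.4 for all. The filter, which requires 3 libraries, can drop low genes seen only in replicate 1. Clone names were not compared at equal levels.

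The 2 genotypes were each compared within themselves, replicate 1 against replicates 2 and 3, which uses no library in common. The grouping was chosen with both replicate 1 libraries already seen apart, which favours agreement between the genotypes. In wild-type 1756 genes (7.09%) were over 2-fold higher and 1871 (7.56%) lower; in mutant the numbers were 1860 (7.51%) and 2059 (8.31%). Of the genes over 2-fold higher in wild-type, 76.1% were so in mutant, and of those over 2-fold higher in mutant, 71.9% were so in wild-type. For lower genes these shares were 72.5% and 65.9%. A further 26 genes (0.105%) were over 2-fold apart in opposite directions. Across all genes the ratios of the genotypes correlated with r of 0.812, given as a description. It was 0.607 for genes under 1 CPM and 0.994 for genes over 100 CPM.

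**Figure D5:**
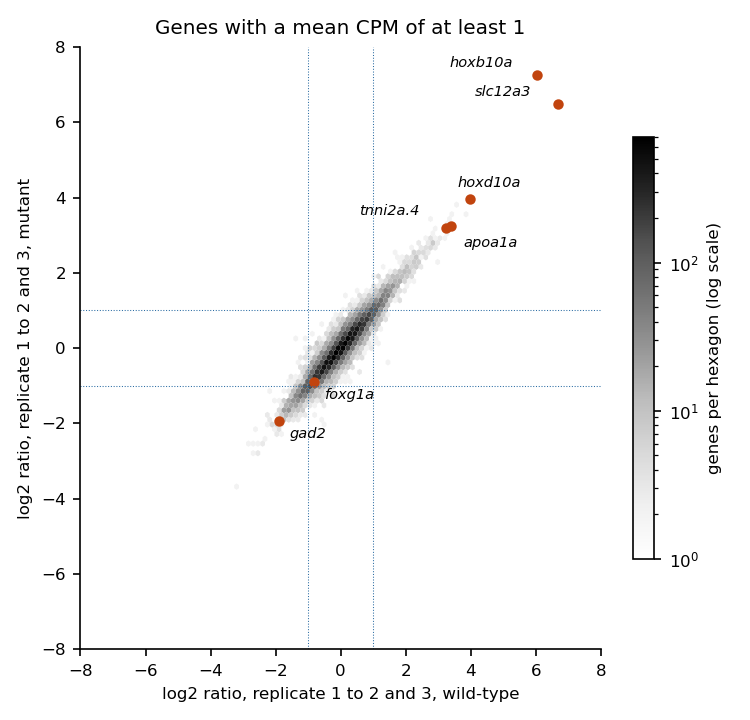
Log2 ratio of replicate 1 to replicates 2 and 3 in mutant (vertical) against wild-type (horizontal) for 20618 genes with a mean of at least 1 CPM; shade gives the number of genes on a log scale, dotted lines mark 2-fold, and orange points are the 7 markers. The genes lie along the diagonal, and 1 gene lies beyond the axes.

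The genotypes were also set side by side list by list. In 38 of 41 lists the median had the same sign in both; the exceptions were the lists of spinal cord, fin fold and yolk proteins. Posterior hox had a median of 3.05 in wild-type and 2.52 in mutant, fast muscle 1.73 and 1.84, liver 1.36 and 1.53, transmitter signalling -1.15 and -1.19, and photoreceptors -0.97 and -0.96. The 16 posterior hox genes and 28 transmitter genes had the same sign in both genotypes gene by gene, as did 41 of 42 fast muscle genes and 55 of 56 photoreceptor genes. A shared sign does not show an equal size. Of the 16 posterior hox genes, 3 had an unadjusted interaction p under 0.05 in edgeR, against 0.63% of all genes. None of them passed after adjustment. Among the 3 was hoxa10b, with a mutant minus wild-type difference of log2 ratios of -0.74 ± 0.24 (SE). The lists of intestine, exocrine pancreas, yolk proteins and liver also held genes under that unadjusted limit. Such genes were thus not particular to posterior hox. For srrm4 itself the ratio was -1.90 ± 0.10 (SE) in wild-type and -1.64 ± 0.10 in mutant.

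Whether the replicate 1 difference depended on genotype was tested as an interaction, with edgeR's quasi-likelihood F test over all 24765 genes. No gene passed an adjusted p of 0.05 (0%), and 156 genes (0.63%) had an unadjusted p under 0.05. limma-voom also called none, with 138 at an unadjusted p under 0.05, and DESeq2 called 2. A miss of the threshold does not show that the genotypes were alike, since each genotype had a single replicate 1 library. The choice of the grouping also favours agreement between the genotypes. The share of genes with an unadjusted p under 0.05 was also well below the 0.05 that chance alone would give. The test was thus conservative and tended to call too few genes. Its fit had no replicate block, so shared differences between the other replicate numbers counted as spread. With that block more genes had an unadjusted p under 0.05, and still none passed.

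The smallest interaction p belonged to myhc4 and myha, fast myosin heavy chain genes whose close copies may share reads. myhc4 had 5.96 CPM in wild-type replicate 1 and 15.15 and 16.93 in wild-type replicates 2 and 3, but 47.2 CPM in mutant replicate 1 and 31.8 and 46.5 in mutant replicates 2 and 3. The mutant ratio exceeded the wild-type ratio by 1.70 ± 0.33 (SE) on the log2 scale, with an adjusted p of 1.00 in edgeR and 0.00499 in DESeq2. The second gene called by DESeq2, CABZ01069162.1, had 1.16, 18.9 and 10.9 CPM in wild-type replicates 1, 2 and 3 and 6.43, 11.2 and 15.4 CPM in mutant, a difference of 2.63 ± 0.57 (SE). It was also called by edgeR without wild-type replicate 3 (adjusted p = 0.048), together with znf1156. AL928808.1 and a gene listed as SCCPDH (1 of many), next by p, had 0.0443 to 2.00 CPM in the 6 libraries.

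The 4 libraries of replicates 2 and 3 were also compared among themselves. This comparison shares its libraries with that of replicate 1, so the values are given side by side and no relation between them is measured. In edgeR's quasi-likelihood test, with genotype and replicate number in the fit, 222 genes (0.896%) passed an adjusted p of 0.05, of which 103 (0.416%) were higher in replicate 3 and 119 (0.481%) lower. An unadjusted p under 0.05 was found in that test for 5023 of the 24765 genes. The median log2 difference between replicates 3 and 2 over all genes was 0.004, which is the background for the direction counts below.

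Muscle genes were among those lower in replicate 3 than in replicate 2. actc1b had 3855 and 3969 CPM in wild-type and mutant replicate 2 and 1937 and 2027 CPM in replicate 3, a log2 difference of -0.98 ± 0.04 (SE; adjusted p in edgeR 0.000385). It was over 2-fold higher still in replicate 1. atp2a1, the calcium pump of muscle, with 2474 and 2583 CPM in replicate 2 and 1310 and 1401 CPM in replicate 3, and myom2a, a protein of the sarcomere's M line, had differences of -0.90 and -0.98. Of the 42 fast muscle genes 38 were lower in replicate 3, and 3 of them passed.

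Of the 16 posterior hox genes 15 were lower in replicate 3, and hoxb9a alone passed (not with only the 4 libraries), with a difference of -0.99 ± 0.09 (SE; adjusted p in edgeR 0.0121). Of 40 liver genes 31 were lower and 5 passed (none with only the 4 libraries), namely apoa1a, apoa2, apoc1, apoc2 and agt. Their differences lay between -0.53 and -0.27, much smaller than their differences from replicate 1; apoa1a had 671 and 665 CPM in replicate 2 and 550 and 507 CPM in replicate 3. No kidney gene passed, and slc12a3 had 0.0585 and 0.112 CPM in replicate 2 and 0.0817 and 0.0922 CPM in replicate 3.

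Photoreceptor genes went the other way: 53 of 56 were higher in replicate 3 than in replicate 2, and 8 passed with all 6 libraries in the fit and none with only these 4. grk7a, the kinase of cone opsins, had 68.4 and 46.0 CPM in wild-type and mutant replicate 2 and 106 and 93.4 CPM in replicate 3, a log2 difference of 0.82 ± 0.11 (SE; adjusted p in edgeR 0.0461). gnat1, the rod transducin, had a difference of 0.64. Of the 20 immediate early and heat shock genes, 15 were higher in replicate 3 and 7 passed (none with only the 4 libraries), among them fosab, a Fos transcription factor, with 10.03 and 10.13 CPM in replicate 2 and 19.4 and 16.4 CPM in replicate 3. In replicate 1 fosab had 14.9 and 11.5 CPM, between those values. Over all lists, 18 of 895 genes passed as higher and 15 as lower, beside 0.416% and 0.481% of all genes. The lists were chosen with earlier results known, and only actc1b and atp2a1 of these genes passed with the 4 libraries alone.

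The smallest p of all belonged to rhcga, an ammonium transporter, with 52.2 and 47.8 CPM in replicate 2, 11.04 and 11.17 CPM in replicate 3 and 19.8 and 18.1 CPM in replicate 1. Its difference between replicates 3 and 2 was -2.17 ± 0.07 (SE; adjusted p in edgeR 0.000202). elf3, an epithelial transcription factor, had 10.5 and 10.7 CPM in replicate 2, 36.0 and 30.0 CPM in replicate 3 and 24.2 and 23.9 CPM in replicate 1. tnfb, a tumour necrosis factor, had 0.273 and 0.403 CPM in replicate 2, 5.89 and 4.42 CPM in replicate 3 and 0.703 and 0.576 CPM in replicate 1. ptgdsb.1, CABZ01061524.1 and ucp2 were lower and p4ha1b was higher in replicate 3 among the 10 genes with the smallest p. In each of these genes both genotypes had the same order. The choice by smallest p favours such genes, since disagreement between the genotypes counts as spread in that fit.

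The number of genes called between replicates 3 and 2 depended on which libraries entered the fit. Without wild-type replicate 1 or without mutant replicate 1 it was 6, without wild-type replicate 3 it was 19 and without mutant replicate 3 it was 69, while it was 3024 without wild-type replicate 2 and 1004 without mutant replicate 2. With only the 4 libraries compared it was 6. Of the 33 list genes called with all 6 libraries, only actc1b and atp2a1 passed with the 4 alone, and likewise without either replicate 1 library, so that no call remained there among the posterior hox, liver, photoreceptor or immediate early genes. Without wild-type replicate 3 or mutant replicate 3 these lists had none either. Among the 10 genes with the smallest p, rhcga, actc1b and atp2a1 passed in all of these fits; p4ha1b missed the threshold in 4 of them and the other 6 in 3.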

How the data were processed

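Per the labels' protocols, head RNA went into TruSeq stranded mRNA libraries. The values analysed are the authors' raw counts, deposited for 32520 Ensembl genes in 6 libraries. The submitters' processing notes list STAR 2.7.3, featureCounts 1.6.4, Subread, DESeq2 and GRCz11 without roles. How strand was handled in counting, and which annotation release was used, is not given in the sources used here. Another deposited table is a normalized signal: within 0.164, it is the counts divided by a factor for each library, and it entered only an alternative. Rows of the counts are identified by Ensembl gene identifiers.

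Counts were analysed with edgeR 4.0.16 (R 4.3.3), with TMM factors, filterByExpr by genotype (a count minimum in 3 libraries, kept 24765 genes) and robust quasi-likelihood fits over all 6 libraries. The ratio of replicate 1 to the others came from a fit with genotype and side, and no p-value was read from it. Each SE is approximate. It is the absolute log2 value divided by the square root of its quasi-likelihood F statistic, also for the replicate 1 ratios. The interaction of side with genotype and the contrast of replicate 3 with replicate 2 were tested 2-sided with Benjamini-Hochberg adjustment over all genes and a threshold of 0.05. DESeq2 1.42.0 and limma 3.58.1 (voom) were alternatives, and matplotlib 3.10.9 drew the figures. The smallest chi-square per gene between any libraries was 4.78, so none was counted as a duplicate. The procedure was checked on simulated counts.

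The 41 lists with 929 names, of which 918 were found and 901 tested, the grouping and the markers were chosen with earlier results of these data known. Named genes are the 7 markers, the 2 most abundant members of each list, the 10 highest and 10 lowest ratios with a mean of at least 5 CPM, up to 10 genes by smallest p for each test (5 where none passed) and srrm4. Other list members, the sums of hox paralog groups and znf1156 were picked for naming after seeing their values. Lists overlap in places. Names came from the deposited table; 4094 genes share a name and were kept apart by identifier. Neighbouring genes were read from RefSeq's GRCz12tu annotation. The replicate numbers come from the labels. Across genes, deviations from the genotype's mean correlated between wild-type and mutant libraries of the same number, with 0.863, 0.579 and 0.744 for replicates 1, 2 and 3. The shared shift of replicate 1 enters all of these values, so they cannot show whether the libraries of replicates 2 and 3 were pairs. The numbers were treated as pairs in the contrast of replicate 3 with replicate 2 and in the replicate block, though no label states it. Values of some single list members are not reported here.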

Additional observations from a re-analysis of the deposited data

Results flagged for a closer look

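The named genes and the 41 list sums were screened for replicate 1 lying above both other libraries in a genotype and below both in the other. This order was found in 5 results. With 3 libraries per genotype it can arise by chance, and its share over all genes was not counted. For the yolk protein gene vtg1, wild-type replicate 1 had 0.260 CPM (17 counts) against 0.302 and 0.508 CPM. Mutant replicate 1 had 0.421 CPM (19 counts) against 0.246 and 0.396 CPM, and the mutant log2 ratio exceeded the wild-type ratio by 1.02. For the myosin heavy chain genes myhc4 and myha this difference was 1.70 and 1.56. myha had 2.05 CPM in wild-type replicate 1 against 5.83 and 4.53 CPM, and 11.1 CPM in mutant replicate 1 against 8.63 and 10.4 CPM. In edgeR's interaction test over all genes none of these 3 genes passed, with adjusted p of 1.00 for each, and DESeq2 called myhc4. The summed pituitary list had 25.8 CPM in wild-type replicate 1 against 24.9 and 25.2 CPM, and 21.1 CPM in mutant replicate 1 against 24.1 and 22.2 CPM, a difference of log2 ratios of -0.17. The summed cell cycle list had 2491 CPM against 2494 and 2571 CPM in wild-type and 2637 CPM against 2622 and 2612 CPM in mutant, a difference of 0.035. For these 2 sums the difference was not tested. Each genotype has 3 libraries, so single libraries were not screened as outliers.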

How the results depend on the processing

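Each replicate 1 side has a single library per genotype, lists were chosen with results known, and counts give shares of a library, so absolute amounts were not measured. Low genes limit the rest: genotype agreement was weakest under 1 CPM. Of the 1692 higher and 1792 lower genes, library totals alone gave 886 and 3744, 1.5-fold gave 4092 and 4532, and 4-fold gave 311 and 279; without a filter 4387 genes were lower, and with 1 CPM in 2 libraries 1161. Leaving out each library in turn gave 1763 to 1905 higher and 1754 to 2238 lower genes. Those fits were filtered anew with a count minimum in 2 libraries and kept 24898 to 25189 genes. Genes high only in replicate 1 could thus enter, so the effects of the library left out and of the filter cannot be told apart.

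With library totals alone the list medians were 2.37 for posterior hox, 1.46 for fast muscle, 1.12 for liver, -0.16 for kidney, -1.45 for transmitter signalling, -0.86 for forebrain and -1.26 for photoreceptors (all genes -0.34). That scaling also turned central hox (-0.063), notochord (-0.067), heart (-0.061), leukocytes (-0.030), fibrillar matrix (-0.10), myelin (-0.10), cell cycle (-0.25), pcsk2 (-0.15), mab21l2 (-0.21), fabp7a (-0.25), mbpb (-0.10), sox10 (-0.003998), crybb1l1 (-0.16), pvalb8 (-0.078) and mt-co3 (-0.31) below 0. Without a filter pituitary turned to 0.11 and posterior hox was 3.10. With 1 CPM in 2 libraries posterior hox was 3.18 and liver 1.6. Against replicate 3 alone the medians were 3.05 for posterior hox, 2.099 for fast muscle, 1.54 for liver, 0.37 for kidney and -0.50 for forebrain. In wild-type alone posterior hox was 3.06, kidney 0.26, forebrain -0.49 and SCCPDH (1 of many) -0.14, and in mutant alone liver was 1.53. Leaving out each library gave 2.62 to 3.27 for posterior hox, 1.64 to 1.99 for fast muscle, 1.36 to 1.55 for liver, 0.11 to 0.26 for kidney, -1.19 to -1.10 for transmitter signalling, -0.57 to -0.50 for forebrain and -1.01 to -0.84 for photoreceptors; the ratio of SCCPDH (1 of many) ran from -0.16, without mutant replicate 1, to 2.34. The 6 of these medians other than kidney kept their direction in every setting run. In the fits without a library, and with 1 CPM in 2 libraries, genes high only in replicate 1 could pass the filter. The members of a list could therefore differ between these settings.

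The replicate block could not be added to the ratio of replicate 1 to the others, since the side is fixed by the replicate number. In the interaction the replicate block gave 0 genes, as without it, with 354 at an unadjusted p under 0.05. DESeq2 gave 2 genes there, and leaving out a library 0 to 1 in each direction. For replicate 3 against replicate 2 (103 higher, 119 lower), the counts were 280 and 353 in DESeq2, 307 and 271 without a filter, 165 and 217 without genotype, and 2 and 4 with the 4 libraries alone; with 1 CPM in 2 libraries 67 were higher. Leaving out each library gave 2 to 1428 higher and 4 to 1596 lower. Apart from fits with fewer samples or genes, the cause of these changes was not tested.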

Other observations

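Some lists held a few genes far from their median. In the list of inner ear and hair cells, OTOP1, a gene needed for the ear stones, had 6.80 and 5.87 CPM in replicate 1 and 1.23 to 1.57 CPM in the others, and oc90, an ear stone protein, had a log2 ratio of 1.62. otofa, a calcium sensor of hair cell synapses, had -1.07. Among immediate early and heat shock genes, the orphan receptor nr4a1 had 30.0 and 29.1 CPM in replicate 1 and 8.99 to 14.4 CPM in the others, while hspa5, a chaperone of the endoplasmic reticulum, differed little, with 528 and 490 CPM against 498 to 544 CPM. These genes were picked for naming after seeing their values, apart from hspa5.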
